A study of Mus musculus with 6 samples.

Results

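A set of 9 genes of the monocyte and dendritic cell lineages were followed in LT-HSCs, the long-term stem cells from which all blood lineages of the marrow descend. They were taken by symbol from the deposited table, and all 9 of 9 had a row among its 26776 genes: Csf1r, Ccr2, Cx3cr1, Ly6c2, Vcam1, Siglech, Irf8, Klf4 and F13a1. RNA had been sequenced from bone marrow cells of Trim47+/eGFP mice, which by the name of the genotype carry a green fluorescent reporter at one allele of the ubiquitin ligase gene Trim47. Both groups share that genotype and differ in reporter brightness: LT-HSCs sorted as eGFPhi (3 libraries) and LT-HSCs sorted as eGFPlo (3 libraries). The labels used here name neither the age nor the sex of the mice, nor the gate, nor whether libraries came from separate or pooled animals, so the p-values measure the spread between these libraries, which may be technical.

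Monocytes and dendritic cells arise from haematopoietic stem cells through progenitors that they share in part with granulocytes. The transcription factors PU.1 (gene Spi1) and Irf8 direct progenitors towards the monocyte and dendritic fates, and Klf4 acts in the formation of inflammatory monocytes in mice. The growth factor receptor Csf1r supports monocyte and macrophage survival, while the chemokine receptors Ccr2 and Cx3cr1 guide the release and patrolling of different monocyte subsets. Siglech marks plasmacytoid dendritic cells, the interferon-producing branch of the lineage, in mice.

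Libraries held 11221070 to 26058391 counts in eGFPhi and 11706873 to 18151852 counts in eGFPlo. Levels are read counts scaled to library size (CPM, with TMM factors), so that 1 count was worth 0.0384 to 0.0890 CPM in eGFPhi and 0.0554 to 0.0857 CPM in eGFPlo. Trim47 itself, on whose reporter the cells were sorted, had 21.6, 26.2 and 23.3 CPM in eGFPhi against 7.28, 8.18 and 8.92 CPM in eGFPlo. Of 15 genes that mark HSCs, 14 were higher in eGFPhi and 0 lower, with 1 not past the threshold. Genes of other marrow cells moved too. Summed over 15 granule and progenitor genes the level was 1071 to 1292 CPM in eGFPhi against 7044 to 7075 CPM in eGFPlo, and over 15 B cell genes 740.0 to 763.7 CPM in eGFPhi against 6269 to 6361 CPM in eGFPlo. Much of the granule and progenitor sum in eGFPhi came from Calr, with 565, 573 and 783 CPM there and 1027, 1016 and 1049 CPM in eGFPlo. Calr was 1.61-fold lower in eGFPhi, whereas Mpo of the same list was 20.5-fold lower. The B cell genes Vpreb3, Cd22 and Igll1 were at 0 in all eGFPhi libraries. So were the T cell genes Trbc2, Cd3d, Cd3e, Cd3g and Bcl11b. Of these, Cd3d had 3, 0 and 2 counts in eGFPlo and Cd3e had 2, 1 and 8, so their 0 in eGFPhi says little. Among the 10 genes that could be tested on the list for T and NK cells, 8 had a lower level in eGFPhi and 2 a higher one.

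All 9 members passed the filter on low counts. In eGFPhi, 8 were lower and 1, Klf4, was higher at an adjusted p under 0.05 (edgeR quasi-likelihood test, Benjamini-Hochberg adjustment over 18081 genes). This has to be read against a comparison in which 64.0% of all tested genes passed, 31.7% lower and 32.3% higher in eGFPhi. All 8 members that fell did so at least 2-fold, where 9.57% of tested genes were called lower by that much. The 3 eGFPhi values lay apart from the 3 eGFPlo values for each of the 9, as they did for 69.8% of tested genes. The median log2 fold change of the members was -1.75, beside 0.0035 over all genes tested. With an assumed biological coefficient of variation of 0.2, under which 36.6% of all tested genes passed a likelihood ratio test, the members again counted 8 lower and 1 higher. In these bulk libraries a smaller share of cells of a type and less RNA per cell cannot be told apart.

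**Figure D1:**
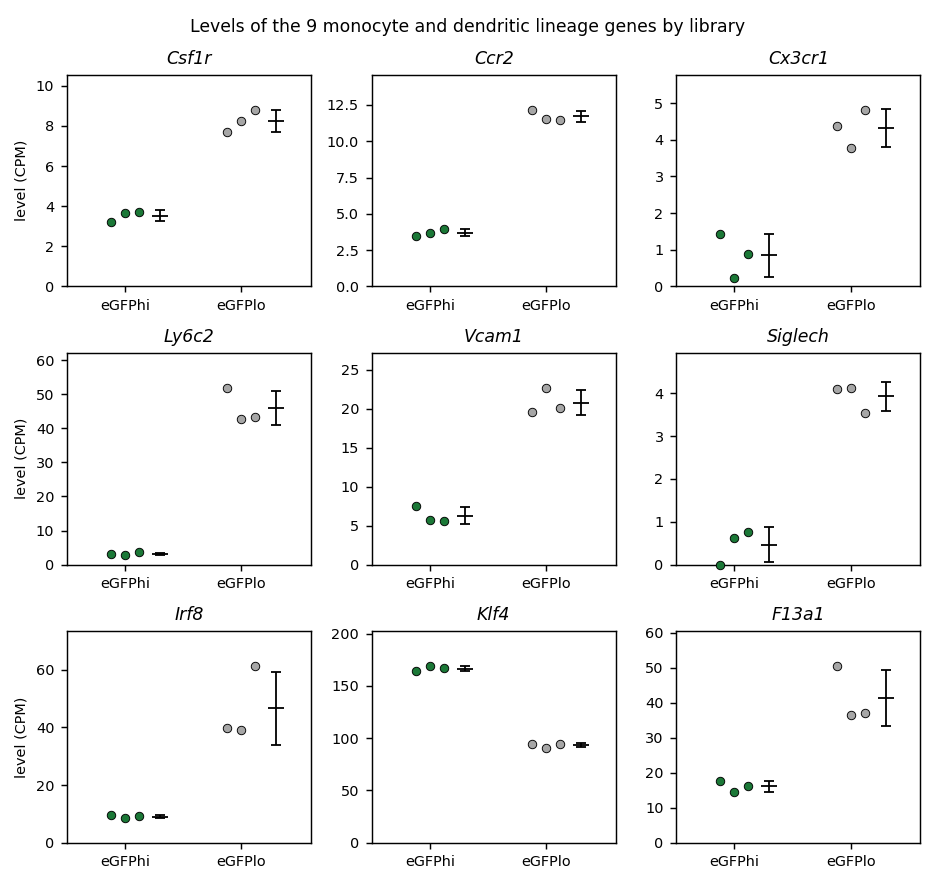
Level of each of the 9 genes in CPM (linear axis from 0) in the 3 eGFPhi (green) and 3 eGFPlo (grey) libraries, with the mean and SD of each group beside its points. Klf4 is higher in the eGFPhi libraries (164 to 169 CPM in eGFPhi against 90.8 to 94.6 CPM in eGFPlo), and the other 8 genes are lower there without overlap between the groups.

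Ly6c2 encodes a surface protein of the Ly6 family that is used to define inflammatory monocytes, and it had the largest fold change of the 9 genes. It had 3.03, 2.84 and 3.54 CPM in eGFPhi against 51.8, 42.8 and 43.3 CPM in eGFPlo. The highest eGFPhi library was thus far below the lowest eGFPlo library. The level averaged 3.14 ± 0.364 CPM in eGFPhi and 46.0 ± 5.06 CPM in eGFPlo (SD, n = 3 each), 14.6-fold lower (log2 fold change -3.87, SE 0.12, edgeR adjusted p = 3.11e-07). A lower log2 fold change was found for 2.03% of tested genes. Ly6c2 (ENSMUSG00000022584) lies on the minus strand at chr15:75108158-75111970 (GRCm38).

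A close relative of Ly6c2 on chromosome 15, Ly6c1, was also lower in eGFPhi. It had 0, 0.423 and 0.462 CPM in eGFPhi and 8.48, 5.73 and 6.70 CPM in eGFPlo (log2 fold change -4.30, SE 0.41, edgeR adjusted p = 7.73e-05). The most similar annotated transcripts of the pair are 95.2% identical, and 13.9% of 50-base windows of Ly6c2 transcripts also occur in Ly6c1, so reads may have been split between them. Their sum, which such a split leaves nearly unchanged, was 3.03, 3.27 and 4.01 CPM in eGFPhi and 60.3, 48.6 and 50.002 CPM in eGFPlo. Ly6a, which encodes the stem cell antigen Sca-1, had no call: at 18.1, 19.6 and 18.03 CPM in eGFPhi and 15.2, 15.8 and 8.86 CPM in eGFPlo it did not pass the threshold (log2 fold change 0.50, SE 0.20, edgeR adjusted p = 0.0623). It passed with limma-voom (adjusted p = 0.0329), with the replicate block (edgeR adjusted p = 0.0451) and when a single eGFPlo library was left out (edgeR adjusted p = 0.0393 without eGFPlo replicate 2 and 0.0422 without eGFPlo replicate 3). Of the 5 tested Ly6 genes besides Ly6c2, 4 fell and 0 rose.

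The sequences before the start sites of Ly6c2 and Ly6c1 are shown because the pair fell together. Each is the 250 bases upstream of the RefSeq start on GRCm38.p6, 5′ to 3′ on the minus strand, from chr15:75111972-75112221 for Ly6c2 and chr15:75048838-75049087 for Ly6c1. Capitals mark matches, on either strand, to GAGGAA (a core bound by PU.1 and other ETS factors), CACCC (a core bound by Krüppel-like factors) and TATAAA.
Ly6c2: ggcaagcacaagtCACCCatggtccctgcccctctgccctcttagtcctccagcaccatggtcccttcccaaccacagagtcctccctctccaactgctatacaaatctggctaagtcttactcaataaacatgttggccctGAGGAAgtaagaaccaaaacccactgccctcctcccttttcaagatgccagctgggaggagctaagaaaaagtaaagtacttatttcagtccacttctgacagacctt
Ly6c1: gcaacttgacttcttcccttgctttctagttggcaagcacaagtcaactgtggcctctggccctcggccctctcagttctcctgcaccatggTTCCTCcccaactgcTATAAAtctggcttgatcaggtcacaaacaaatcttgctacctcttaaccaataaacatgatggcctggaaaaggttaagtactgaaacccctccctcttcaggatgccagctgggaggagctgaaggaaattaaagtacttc
Both windows hold GAGGAA, at bases -108 to -103 of Ly6c2 and, on the opposite strand, at -158 to -153 of Ly6c1. In a global alignment the windows matched in 164 of 284 columns (57.7%), less than the transcripts did.

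Among the receptors, Csf1r, which binds the growth factors Csf1 and interleukin-34, had the smallest fold change. It had 3.20, 3.65 and 3.70 CPM in eGFPhi and 7.71, 8.25 and 8.80 CPM in eGFPlo. The groups did not overlap, and every library had at least 36 counts. The difference was 2.33-fold (log2 fold change -1.22, SE 0.12, edgeR adjusted p = 8.16e-05). Exons of Csf1r (ENSMUSG00000024621, chr18:61100598-61132149) share 873 of their 5774 bases with the opposite-strand gene Hmgxb3, whose level was 51.2 ± 3.70 CPM in eGFPhi and 51.4 ± 1.73 CPM in eGFPlo (SD, n = 3 each). No source used here says whether the counting used strand, so reads of Hmgxb3 may be included in both groups.

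Ccr2, the receptor through which monocytes leave the marrow, had 3.47, 3.65 and 3.96 CPM in eGFPhi against 12.2, 11.5 and 11.5 CPM in eGFPlo. The groups did not overlap. The level was 3.15-fold lower (log2 fold change -1.66, SE 0.10, edgeR adjusted p = 8.42e-06). Ccr2 (ENSMUSG00000049103) lies at chr9:124101950-124113557 and Cx3cr1 (ENSMUSG00000052336) on the same chromosome at chr9:119901616-120069879.

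Cx3cr1, the fractalkine receptor of patrolling monocytes and of monocyte-dendritic progenitors, was close to the limit of detection in eGFPhi. It had 1.42, 0.231 and 0.873 CPM in eGFPhi and 4.37, 3.77 and 4.82 CPM in eGFPlo. The lowest value came from the deepest library, with 6 counts, against 16 and 17 in the other eGFPhi libraries. The fall was 5.91-fold (log2 fold change -2.56, SE 0.45, edgeR adjusted p = 0.00172), and 3.92-fold without eGFPhi replicate 2. Its exons overlap an opposite-strand gene over 78 bases, those of Vcam1 over 61 and those of F13a1 over 74. Of 8 other chemokine receptor genes that could be tested, 5 fell and 0 rose. Among them Ccr9, a receptor of plasmacytoid dendritic cells and thymus-homing progenitors, was 6.42-fold lower (edgeR adjusted p = 1.20e-05). Exons of Ccr9 overlap other annotated genes, 1 of them on the same strand, so its counts are uncertain.

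Vcam1 encodes an adhesion molecule found on marrow macrophages, stroma and endothelium as well as on stem cells of the mouse (ENSMUSG00000027962, chr3:116109949-116129688). It had 7.57, 5.72 and 5.55 CPM in eGFPhi and 19.6, 22.6 and 20.05 CPM in eGFPlo, again without overlap. It was 3.36-fold lower (log2 fold change -1.75, SE 0.13, edgeR adjusted p = 2.32e-05). Genes of resident marrow macrophages other than Vcam1 were low in both groups, with a summed level over 13 genes of 29.8 to 33.4 CPM in eGFPhi and 29.0 to 34.7 CPM in eGFPlo. Of the 7 of them that could be tested 3 rose and 3 fell. Of 10 tested genes of stroma and endothelium 6 rose and 2 fell, with a summed level over 15 genes of 208.1 to 213.0 CPM in eGFPhi and 134.7 to 136.5 CPM in eGFPlo. The highest of these in eGFPhi were Tek (mean 63.1 CPM, 16.6 CPM in eGFPlo) and Pecam1 (58.8 CPM, 68.5 CPM in eGFPlo). Cdh5, Lepr, Pdgfra, Col1a1 and Kitl could not be tested and averaged at most 0.584 CPM in either group. The part of macrophage, stroma and endothelium genes in the level of Vcam1 was not tested.

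Siglech, a sialic acid binding lectin of plasmacytoid dendritic cells, had the lowest level in eGFPhi (ENSMUSG00000051504, chr7:55768178-55778925). It had 0, 0.615 and 0.771 CPM in eGFPhi and 4.11, 4.12 and 3.54 CPM in eGFPlo. The library with no count was eGFPhi replicate 1, the shallowest, where 3 counts, the limit that a count of 0 allows, correspond to 0.267 CPM. This floor covers counting error only. The other eGFPhi libraries held 16 and 15 counts, against 48, 59 and 64 counts in eGFPlo. The fitted fall was 7.26-fold (log2 fold change -2.86, SE 0.46, edgeR adjusted p = 0.00103), and the log2 fold change was -2.49 without the library at 0.

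F13a1 encodes the A subunit of coagulation factor XIII and is made by monocytes, macrophages and megakaryocytes (ENSMUSG00000039109, chr13:36867178-37050244). It had 17.6, 14.4 and 16.2 CPM in eGFPhi and 50.4, 36.4 and 36.99 CPM in eGFPlo, where replicate 1 was the highest. The fall was 2.58-fold (log2 fold change -1.37, SE 0.14, edgeR adjusted p = 0.000115). Genes of megakaryocytes and platelets went mostly the other way. Of 16 tested 12 rose and 2 fell, and the summed level over 17 genes was 880.2 to 896.1 CPM in eGFPhi against 385.6 to 419.0 CPM in eGFPlo. Mmrn1 (mean 329 CPM) and Vwf (187 CPM) were the highest of them in eGFPhi. The 2 that fell were Ppbp and Plek. Ppbp had 0, 5 and 0 counts in eGFPhi and 63, 81 and 97 in eGFPlo. Plek was 2.28-fold lower, and its exons share 199 bases with an opposite-strand gene.

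The 2 transcription factors among the members moved in opposite directions. Irf8, which promotes monocyte and dendritic fates over the granulocyte fate, had 9.52, 8.45 and 9.25 CPM in eGFPhi and 39.7, 39.0 and 61.1 CPM in eGFPlo. The eGFPlo libraries varied more than the eGFPhi ones, with replicate 3 above the other two. The fall was 5.19-fold (log2 fold change -2.38, SE 0.19, edgeR adjusted p = 2.96e-05), and without eGFPlo replicate 3 the log2 fold change was -2.13. Irf8 (ENSMUSG00000041515) lies at chr8:120736358-120756694.

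Klf4, a Krüppel-like factor that many cell types also induce as an early response gene, had 164, 169 and 167 CPM in eGFPhi against 94.1, 90.8 and 94.6 CPM in eGFPlo. It was the most abundant member in every library and the one with the least relative spread. The level was 1.79-fold higher in eGFPhi (log2 fold change 0.84, SE 0.03, edgeR adjusted p = 6.12e-07). A log2 fold change below that of Klf4 was found for 84.0% of tested genes. Klf4 (ENSMUSG00000003032) lies at chr4:55527143-55532466.

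The upstream windows of Irf8, Klf4 and F13a1 are printed to set the factor that fell beside the factor that rose and beside a further member with a PU.1-type core. They come from chr8:120736108-120736357 (plus strand), chr4:55532476-55532725 (minus strand) and chr13:37050245-37050494 (minus strand) on GRCm38.p6, with the same motifs in capitals.
Irf8: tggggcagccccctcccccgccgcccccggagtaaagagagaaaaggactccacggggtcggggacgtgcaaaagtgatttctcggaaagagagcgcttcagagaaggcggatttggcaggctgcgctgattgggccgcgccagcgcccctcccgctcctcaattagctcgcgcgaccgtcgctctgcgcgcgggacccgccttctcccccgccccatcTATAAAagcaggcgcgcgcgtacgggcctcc
Klf4: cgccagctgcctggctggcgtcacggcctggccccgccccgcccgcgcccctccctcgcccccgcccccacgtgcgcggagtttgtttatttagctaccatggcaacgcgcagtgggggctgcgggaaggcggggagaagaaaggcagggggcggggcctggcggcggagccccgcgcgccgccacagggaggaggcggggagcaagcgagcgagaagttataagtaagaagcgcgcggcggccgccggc
F13a1: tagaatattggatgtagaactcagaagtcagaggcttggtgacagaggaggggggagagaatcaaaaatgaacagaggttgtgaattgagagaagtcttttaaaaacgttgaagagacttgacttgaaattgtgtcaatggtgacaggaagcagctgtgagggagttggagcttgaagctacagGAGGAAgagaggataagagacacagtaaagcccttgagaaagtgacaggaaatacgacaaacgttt
Irf8 has TATAAA at bases -31 to -26, F13a1 has GAGGAA at -66 to -61, and the Klf4 window holds none of the letters searched. Over the 7 members with an entry in the RefSeq promoter table, GAGGAA occurred in 2 (Ly6c2 and F13a1), beside 23.3% of 32851 promoters of the same length. CACCC occurred in 3 (Ly6c2, Cx3cr1 and Siglech), beside 52.0%, and TATAAA in 1, beside 12.4%. A composite ETS-IRF motif (GGAA, then any 2 bases, then GAAA) and an interferon response motif (GAAA, then any 2 bases, then GAAA), which can overlap, occurred in 0 of 7, beside 2.30% and 2.98% of promoters. Both strands were searched, and a match is a description of the letters only.

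**Figure D2:**
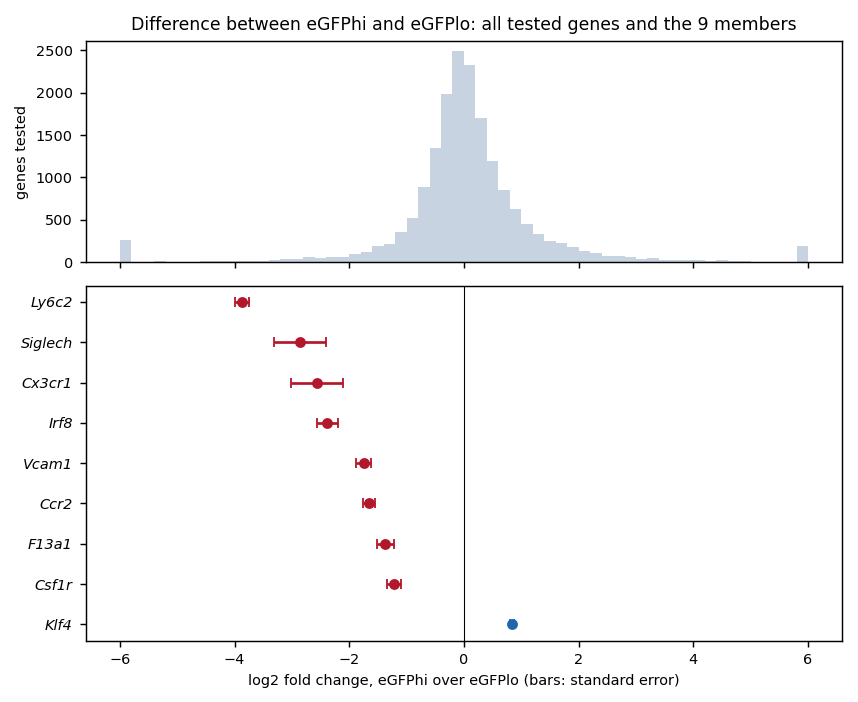
Upper panel: number of tested genes per bin of log2 fold change (eGFPhi over eGFPlo; the outermost bins also hold all genes beyond 6 in size). Lower panel: log2 fold change of each member with its standard error; 8 lie between -3.87 (Ly6c2) and -1.22 (Csf1r), and Klf4 lies at 0.84.

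Levels of different genes were compared as CPM per kilobase of merged exons. In eGFPhi the order from high to low was Klf4 (54.6 ± 0.754), F13a1 (2.38 ± 0.239), Irf8 (1.29 ± 0.0788), Ly6c2 (1.15 ± 0.133), Vcam1 (0.708 ± 0.126), Csf1r (0.609 ± 0.0472), Ccr2 (0.546 ± 0.0363), Cx3cr1 (0.187 ± 0.133) and Siglech (0.137 ± 0.120), each as mean ± SD over n = 3. The libraries of Irf8 and Ly6c2 overlapped, as did those of Vcam1 and Csf1r, of Csf1r and Ccr2, and of Cx3cr1 and Siglech. In eGFPlo the order was Klf4 (30.6 ± 0.680), Ly6c2 (16.8 ± 1.85), Irf8 (6.61 ± 1.78), F13a1 (6.12 ± 1.17), Vcam1 (2.34 ± 0.185), Ccr2 (1.73 ± 0.0573), Csf1r (1.43 ± 0.0948), Siglech (1.16 ± 0.0980) and Cx3cr1 (0.959 ± 0.116). Irf8 overlapped F13a1 there, and Siglech overlapped Cx3cr1. Ly6c2 thus stood at place 4 in eGFPhi and at place 2 in eGFPlo.

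To see how the members differed from one another without any scaling between libraries, each was divided by Csf1r within its library (log2 of counts plus 0.5). Counts of Csf1r may include reads of the overlapping gene Hmgxb3, and every ratio shares that uncertainty. The part of such reads in the differences was not tested. Ly6c2 had log2 ratios of -0.08, -0.36 and -0.06 in eGFPhi and 2.74, 2.37 and 2.29 in eGFPlo, a difference of -2.64. The ratio of Irf8 was 1.56, 1.21 and 1.32 in eGFPhi and 2.36, 2.24 and 2.79 in eGFPlo, a difference of -1.10. The Ccr2 ratio differed by -0.44, with 0.11, 0.00 and 0.10 in eGFPhi and 0.65, 0.48 and 0.38 in eGFPlo. For these members every eGFPhi ratio was below every eGFPlo ratio. Siglech and Cx3cr1 also separated, with differences of -2.58 and -1.42, which were -1.31 without eGFPhi replicate 1 and -0.66 without eGFPhi replicate 2. Klf4 separated upwards, at 5.66, 5.52 and 5.49 in eGFPhi against 3.60, 3.45 and 3.42 in eGFPlo. For each of these 6 ratios the exact two-sided permutation test gave p = 0.1, the smallest that 3 libraries against 3 allow (0.133 adjusted over 8 ratios). The ratios of Vcam1 (difference -0.51, exact permutation p = 0.2, adjusted 0.229) and F13a1 (difference -0.12, exact permutation p = 0.6, adjusted 0.6) overlapped between the groups.

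**Figure D3:**
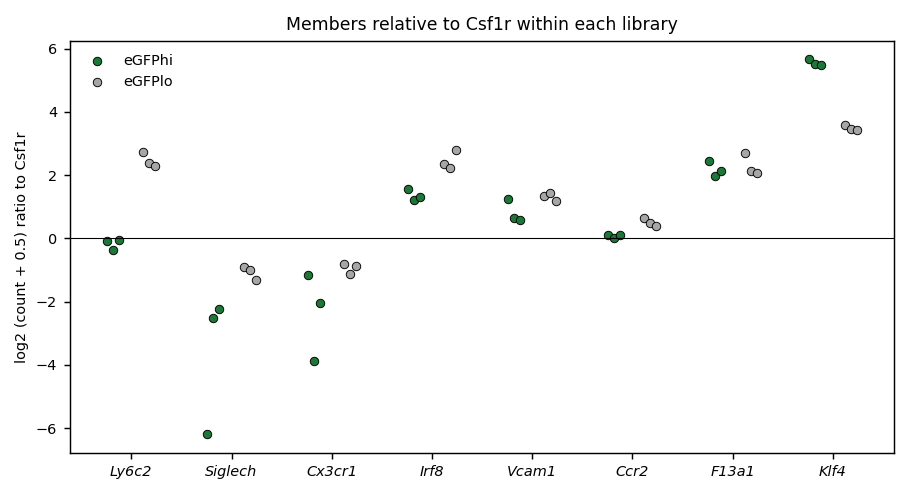
Log2 ratio of each member to Csf1r within a library (counts plus 0.5), for 3 eGFPhi (green) and 3 eGFPlo (grey) libraries. The groups separate for Ly6c2, Siglech, Cx3cr1, Irf8, Ccr2 and Klf4 and overlap for Vcam1 and F13a1; the lowest Siglech point is the library with no count.

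Binding partners of the members did not follow them uniformly. Cx3cl1, the gene of fractalkine, the ligand of Cx3cr1, had 18.5, 16.6 and 16.2 CPM in eGFPhi against 2.74, 0.210 and 4.43 CPM in eGFPlo. It was higher in eGFPhi while its receptor was lower there (6.69-fold, log2 fold change 2.74, SE 0.54, edgeR adjusted p = 0.00298). The eGFPlo libraries were uneven, with 3 counts in replicate 2, and the log2 fold change was 3.62 without eGFPlo replicate 3. Csf1, the ligand of Csf1r, had 4.90, 5.53 and 8.37 CPM in eGFPhi and 12.1, 9.30 and 9.75 CPM in eGFPlo. Its 1.63-fold fall (edgeR adjusted p = 0.0198) did not pass without eGFPhi replicate 1, eGFPhi replicate 2 or eGFPlo replicate 1 (edgeR adjusted p = 0.054, 0.0693 and 0.0641). The second ligand gene, Il34, had at most 0.111 CPM in any library. Ccl2, a ligand of Ccr2, stood at 0.798 ± 0.304 CPM in eGFPhi and 1.38 ± 0.329 CPM in eGFPlo (SD, n = 3 each) and did not pass (edgeR adjusted p = 0.0637; 0.0277 without eGFPhi replicate 3 and 0.0488 without eGFPlo replicate 1).

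Integrin subunits whose dimers bind Vcam1 differed in direction. Itga4, the alpha 4 subunit, had 419, 415 and 423 CPM in eGFPhi and 604, 593 and 596 CPM in eGFPlo. It was 1.43-fold lower (log2 fold change -0.51, SE 0.02, edgeR adjusted p = 5.47e-07), and its exons share 1124 bases with the opposite-strand gene Cerkl. Its partner subunit Itgb7 was 1.48-fold lower at 14.8, 14.7 and 15.8 CPM in eGFPhi and 24.3, 17.7 and 24.9 CPM in eGFPlo (edgeR adjusted p = 0.00730), whereas the other partner, Itgb1, was 1.08-fold higher at 231 ± 2.87 CPM in eGFPhi and 213 ± 7.77 CPM in eGFPlo (SD, n = 3 each; edgeR adjusted p = 0.0146). With the assumed coefficient of variation of 0.2 these integrin calls were lost (likelihood ratio test adjusted p = 0.0758 for Itga4, 0.0583 for Itgb7 and 0.754 for Itgb1). Tyrobp, the signalling adaptor of Siglech, had 2.58, 2.61 and 2.52 CPM in eGFPhi and 15.7, 14.2 and 14.6 CPM in eGFPlo, 5.75-fold lower (edgeR adjusted p = 9.96e-07).

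**Figure D4:**
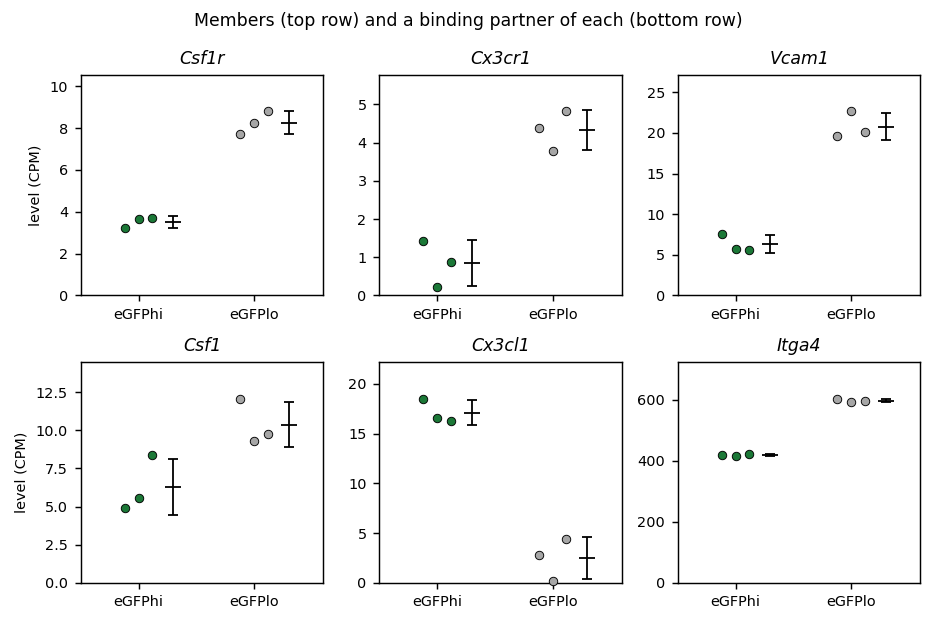
Levels in CPM (linear axes from 0) of the members Csf1r, Cx3cr1 and Vcam1 in the top row and of a gene whose product binds each (Csf1, Cx3cl1, Itga4) in the bottom row, with 3 eGFPhi (green) and 3 eGFPlo (grey) libraries and the mean and SD of each group. Cx3cl1 is higher in eGFPhi where Cx3cr1 is lower; Csf1 and Itga4 are lower in eGFPhi, as Csf1r and Vcam1 are.

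Transcription factors that act with Irf8 or in the same progenitors moved in both directions. Spi1, which encodes PU.1, had 50.5, 57.6 and 58.5 CPM in eGFPhi and 87.9, 86.0 and 91.4 CPM in eGFPlo, 1.59-fold lower (edgeR adjusted p = 5.87e-05). Cebpa, the myeloid factor C/EBP alpha, was 2.35-fold lower (edgeR adjusted p = 1.22e-06). Irf4, a factor closely related to Irf8, had 9.26, 9.95 and 5.91 CPM in eGFPhi and 45.0, 39.6 and 45.8 CPM in eGFPlo, with a log2 fold change of -2.38 (SE 0.18, edgeR adjusted p = 1.94e-05), the same as for Irf8 to that precision. Nr4a1, a nuclear receptor required for Ly6C-low monocytes in mice and also an early response gene, went up with Klf4. It had 801, 847 and 692 CPM in eGFPhi and 185, 202 and 191 CPM in eGFPlo, 4.04-fold higher (edgeR adjusted p = 6.28e-07). Over the whole list of 22 ligands, partners and co-acting factors with a row in the table, 20 could be tested, of which 12 fell, 6 rose and 2 did not pass. Their median log2 fold change was -0.54.

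Further genes of monocytes and macrophages were mostly lower. Of 35 listed, 30 had a row and 27 could be tested; 16 fell, 5 rose and 6 did not pass, with a median log2 fold change of -0.72. Among those with the smallest p were Itgal (3.58-fold lower), the integrin subunit of LFA-1; Ms4a3 (27.9-fold lower), a gene of granulocyte-monocyte progenitors; and Itgam (8.94-fold lower), the integrin subunit of Mac-1. Itgam had 6.05, 6.57 and 5.45 CPM in eGFPhi and 53.5, 58.6 and 50.5 CPM in eGFPlo (edgeR adjusted p = 2.52e-07). Exons of Itgam share 3450 of their 5024 bases with the same-strand gene Gm49368, so its counts are uncertain. None of these is restricted to monocytes. The 5 genes of the list that rose were Gda (2.07-fold), Lyz2 (1.32-fold), Fn1 (1.46-fold), Ifitm6 (2.09-fold) and Ear2 (2.10-fold). Lyz2 had 103.9 ± 6.03 CPM in eGFPhi and 78.8 ± 3.66 CPM in eGFPlo (SD, n = 3 each; edgeR adjusted p = 0.000436). The calls of Ifitm6 and Ear2 were lost in 6 and 2 of 13 alternatives, and those of Lyz2 and Fn1 in 1 of 14. The summed level of the list was 886.6 to 892.6 CPM in eGFPhi and 1409 to 1456 CPM in eGFPlo. The granule and progenitor genes, a list that also holds Ms4a3, fell at all 15 of 15 in the same libraries, with a median log2 fold change of -3.31. Among them were Mpo (20.5-fold lower) and Elane (22.7-fold lower). Exons of Mpo share 512 bases with an opposite-strand gene. The part of the granule and progenitor genes in the fall of the members was not tested.

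Dendritic cell genes were divided. Of 25 genes of conventional dendritic cells, 19 could be tested; 9 rose, 9 fell and 1 did not pass (median log2 value 0.26). Flt3, the receptor that drives dendritic cell development and is also made by multipotent progenitors, had 77.6, 69.0 and 73.3 CPM in eGFPhi and 165, 166 and 168 CPM in eGFPlo (2.28-fold lower, edgeR adjusted p = 7.33e-07). Wdfy4, needed for cross-presentation, was 1.56-fold lower, and Sirpa, an inhibitory receptor of the myeloid lineage, was 1.83-fold higher at 45.6 ± 1.54 CPM in eGFPhi and 24.8 ± 0.202 CPM in eGFPlo (SD, n = 3 each). Cd24a was 1.43-fold lower (edgeR adjusted p = 5.88e-06; 0.0743 in the likelihood ratio test with an assumed coefficient of variation of 0.2). Markers of this cell type differed in level and direction. Batf3 and Clec10a were at 0 in all eGFPhi libraries and could not be tested. In eGFPlo Batf3 had 7, 0 and 12 counts and Clec10a had 6, 14 and 30. Clec9a reached at most 0.839 CPM in any library. Itgax was 8.43-fold lower at 0.371 ± 0.122 CPM in eGFPhi and 3.25 ± 0.779 CPM in eGFPlo (SD, n = 3 each; edgeR adjusted p = 9.07e-05). Zbtb46, a transcription factor of conventional dendritic cells, was higher at 4.05 ± 0.236 CPM in eGFPhi and 2.13 ± 0.169 CPM in eGFPlo (SD, n = 3 each; edgeR adjusted p = 0.000868). Genes of antigen presentation by MHC class II also rose, among them H2-Aa (1.79-fold), Ciita (2.85-fold) and Cd74 (1.42-fold).

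Of 25 genes of plasmacytoid dendritic cells besides Siglech, 20 could be tested; 11 fell, 4 rose and 5 did not pass (median log2 value -0.61). Dntt (54.8-fold lower), Spib (8.74-fold lower) and Ccr9 were among those with the smallest p. Dntt, the terminal transferase, is also a gene of early lymphoid progenitors. Spib, an ETS factor of plasmacytoid dendritic and B cells, had 0.712, 0.692 and 0.822 CPM in eGFPhi and 6.77, 6.50 and 6.37 CPM in eGFPlo (edgeR adjusted p = 2.30e-06). Tcf4, the factor that sets up this cell type, was abundant and did not pass, at 147, 155 and 145 CPM in eGFPhi and 88.6, 158 and 145 CPM in eGFPlo (log2 fold change 0.19, edgeR adjusted p = 0.404; -0.02 on the log2 scale without eGFPlo replicate 1).

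**Figure D5:**
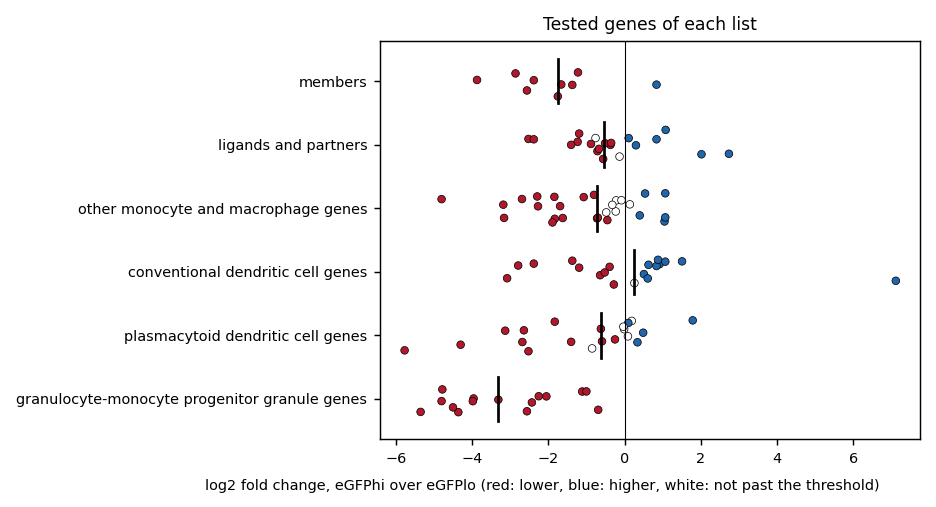
Log2 fold change (eGFPhi over eGFPlo) of each tested gene of the members and of 5 related gene lists, red where lower, blue where higher and white where not past the threshold; black lines mark medians. The members (median -1.75) lie between the granule and progenitor genes (-3.31) and the other lists. The point at the far right is Itgae, which had no count in eGFPlo, so that its position depends on the fit.

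The genes whose profiles came closest to a member were sought by the root mean square difference of log2 CPM centred over the 6 libraries. The search covered 10465 genes with a mean of at least 5 CPM, leaving out predicted-model, Rik and accession-type symbols. For Ly6c2 they were Rps6ka2 (0.115) and Abca13 (0.143), and for Csf1r they were Spag5 (0.0449) and Emilin2 (0.0546). For Irf8 the nearest were Ly6d (0.177) and Ighv1-18 (0.184). Klf4 had the closest matches, Dennd4a (0.0147) and Cebpb (0.0151). Cebpb, which encodes the myeloid factor C/EBP beta and overlaps Tmem189 on the opposite strand, had 105, 106 and 105 CPM in eGFPhi against 59.7, 56.3 and 60.1 CPM in eGFPlo.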

How the data were processed

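Per the labels, poly-A RNA (integrity number above 7.0) was made into stranded paired-end libraries. The submitters' processing notes name CASAVA 1.8, HISAT2, StringTie and edgeR without roles, with hg38 and GRCm38 as builds. Which program counted reads, whether it used strand and how it treated shared reads is not given in the sources used here. Per the file headers, the deposited table holds whole-number read counts per gene and library, taken as raw counts, and FPKM values by the authors, used only to check the order of levels. GENCODE M21 (GRCm38) has 26710 of the 26776 gene identifiers, 26471 of them at identical coordinates.

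Counts were tested in edgeR 4.0.16 (R 4.3.3): filterByExpr (minimum count 10, minimum total 15) kept 18081 genes, TMM factors were used, and quasi-likelihood F tests between the groups were adjusted by Benjamini-Hochberg over all kept genes (threshold 0.05). A floor of 3 counts was 0.115 to 0.267 CPM per library. The members and gene lists were chosen with earlier results of these data known. Besides members, the text names direct partners, family members and, from each related list, up to 4 genes past the threshold with the smallest p; Spi1, Irf4, Tcf4, Batf3, Clec9a, Clec10a, Itgae, Zbtb46, H2-Aa, Ciita, Cd74 and the marker genes at 0 were chosen after their values were seen. A gene that this rule names is not reported here. Ratios to Csf1r were tested by exact permutation. Replicates differed by more than sampling noise (chi-square per degree of freedom 3.89 to 5.41). Same-numbered libraries did not deviate together (r = -0.0133, 0.000555 and -0.0108), so groups were compared unpaired. Upstream windows are from RefSeq (GRCm38.p6), with 7 of 9 members matched. The alternatives comprised other scaling factors (RLE, upper quartile), no filter or 5 CPM in 3 libraries, DESeq2 1.42.0, limma-voom (limma 3.58.1), an assumed biological coefficient of variation of 0.2, a replicate block, a threshold of 0.01 and leaving out each library. On simulated data for this comparison (17639 genes, 50 per change), 94% were called at a log2 change of -1, 92% at 1 and 0.0803% of unchanged genes. There 17439 genes were unchanged and every gene had the same biological variation. In the data 64.0% of tested genes were called, so these rates need not hold for them.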

Additional observations from a re-analysis of the deposited data

How the results depend on the processing

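In each of the alternatives in which they could be tested, all 9 members kept their direction and passed the threshold (8 lower and 1 higher, also at an adjusted p under 0.01), except that Siglech and Cx3cr1 were removed by the filter of 5 CPM in 3 libraries. Cx3cr1 ranged from -3.04 to -1.97 in log2 fold change when single libraries were left out, and Siglech reached -3.52 with limma-voom. With an assumed coefficient of variation of 0.2 the count over all genes was 3637 higher and 2982 lower, in place of 5840 and 5731. The 5 further monocyte and macrophage genes that rose were 3 under the 5 CPM filter, with DESeq2 and with the assumed coefficient, and 3 to 5 when single libraries were left out. For plasmacytoid dendritic cell genes, 6 fell under the 5 CPM filter in place of 11, and 2 rose with DESeq2, 1 with the assumed coefficient and 2 to 3 without single libraries, in place of 4. The ratio of F13a1 to Csf1r ranged from -0.25 to 0.08 without single libraries, turning to 0.08 without eGFPlo replicate 1. By the deposited FPKM, whose gene lengths differ from merged exons, neighbours in the eGFPlo order changed places: F13a1 stood at 3 and Irf8 at 4, Csf1r at 6 and Ccr2 at 7, Cx3cr1 at 8 and Siglech at 9. With the replicate block 5551 genes were higher and 5414 lower; it changed no member's call, and of the genes that the naming rule picks it changed that of Ly6a, which passed (adjusted p = 0.0451). Where the setting itself does not test fewer genes or libraries, the cause was not tested. Of 613 further values, for the partners, family members and list genes that the naming rule picks, 600 kept their call, 7 lost it, 6 gained it and 0 reversed. Outside that rule Tcf4, which had no call, turned to -0.02 without eGFPlo replicate 1.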

Other observations

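The paired receptor genes Csf2rb and Csf2rb2, chosen after their values were seen, encode beta chains of receptors for cytokines of the myeloid lineage, interleukin-3 among them. Csf2rb had 19.0, 20.7 and 20.8 CPM in eGFPhi and 44.2, 52.4 and 42.2 CPM in eGFPlo (2.29-fold lower, edgeR adjusted p = 2.45e-05). Csf2rb2 had 13.8, 17.8 and 15.4 CPM in eGFPhi and 5.997, 8.95 and 7.31 CPM in eGFPlo (2.12-fold higher, edgeR adjusted p = 6.98e-04). The genes are paralogs whose sequence identity was not measured here, and the sources used here do not say how reads shared between genes were counted. Among chemokine receptors outside the tests, Ackr1 had 56 counts over the eGFPhi libraries and 0 over the eGFPlo libraries. Others went the opposite way. Ccr6, Cxcr1, Cxcr6 and Ackr4 had 0 counts over the eGFPhi libraries and 44, 28, 25 and 15 over the eGFPlo libraries. Ccr4 and Ccr10 also had 0 in eGFPhi, with 5 and 2 counts in eGFPlo.

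Klk1, a kallikrein gene on the list of plasmacytoid dendritic cell genes, had 155 counts (8.58 CPM) in eGFPlo replicate 3 and 0 in each of the other 5 libraries. The same library had the highest level of Irf8 (61.1 CPM, against 39.7 and 39.0 CPM in the other eGFPlo libraries) and the lowest of Siglech in eGFPlo (3.54 CPM, against 4.11 and 4.12 CPM).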
